A study of Mus musculus with 3 samples.

Results

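Claudins, occludin and the tight junction scaffold were examined in keratinocytes of RASSF9-/- and WT mice. The 9 genes were Cldn1, Cldn3, Cldn4, Cldn6, Cldn7, Cldn8, Cldn12, Ocln and Tjp1, and every probe set whose annotation gives 1 gene symbol from among them was taken. This gave 17 probe sets of the 45037 on the array that are not controls, and 9 of the 18193 genes with a probe set of 1 symbol. RNA was measured on Affymetrix arrays of the mouse genome (type 430 2.0), where a probe set is a group of short oligonucleotides against 1 transcript region. WT was measured on 1 array and RASSF9-/- on 2, described as independent samples and called RASSF9-/- arrays 1 and 2 here.

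All samples were primary epidermal keratinocytes from the skin of neonatal ICR mice, grown in defined K-SFM, a keratinocyte medium low in calcium, with no treatment named. WT cells carried the intact gene. RASSF9-/- mice come from 1 transgenic line in which a transgene for the viral oncoprotein LMP1 inserted into the first intron of Rassf9 and removed part of it. The RASSF9-/- samples therefore also carry the transgene, which WT lacks, and the loss of Rassf9 and the presence of the transgene cannot be told apart. The sample descriptions give 24 h of culture for WT and 48 h for RASSF9-/-, whereas the methods give the same time for all. By the descriptions, each genotype has its own culture time, and the effects of time and genotype then cannot be told apart either. WT and RASSF9-/- array 1 share a number at the end of their array image names, and RASSF9-/- array 2 has another. The meaning of this number is not stated, and it is used here as a possible batch. With 1 culture plate per sample and 1 WT array, the spread of WT is not known, and p-values measure only the spread of the RASSF9-/- pair, moderated over all genes.

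Tight junctions seal the space between neighbouring epithelial cells. Claudins are membrane proteins that line up in strands and set which ions and molecules pass between cells, occludin lies in the same strands, and ZO-1, the product of Tjp1, ties the strands to actin from the inside. In epidermis, functional tight junctions lie in the granular layer, and Cldn1 is needed there to keep water in. Cells in low calcium form few mature junctions, and the arrays measured RNA, not assembled junctions.

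The region before the transcription start is shown for Cldn7, which had the largest difference of the 8 genes tested, for Cldn1, the claudin the epidermal barrier depends on, and for Cldn4, which differed little. Each sequence holds the 250 bases before a RefSeq transcript start of GRCm38.p6, read 5′ to 3′ on the strand of the gene. Cldn7 has a pair of annotated starts, of which the downstream one is shown, at chr11:69965171-69965420 on the plus strand. The Cldn1 window is at chr16:26371840-26372089 and the Cldn4 window at chr5:134946935-134947184, both on the minus strand. Capitals mark matches to the motifs searched.
Cldn7: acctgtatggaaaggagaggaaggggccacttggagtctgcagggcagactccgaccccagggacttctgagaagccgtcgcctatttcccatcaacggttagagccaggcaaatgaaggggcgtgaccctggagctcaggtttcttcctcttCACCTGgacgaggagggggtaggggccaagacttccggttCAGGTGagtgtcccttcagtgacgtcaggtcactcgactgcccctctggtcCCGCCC
Cldn1: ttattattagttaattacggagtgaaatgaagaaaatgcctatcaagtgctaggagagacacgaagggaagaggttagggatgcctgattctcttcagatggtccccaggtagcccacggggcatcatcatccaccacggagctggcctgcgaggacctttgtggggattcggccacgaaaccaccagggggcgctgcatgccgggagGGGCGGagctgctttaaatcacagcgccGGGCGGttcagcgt
Cldn4: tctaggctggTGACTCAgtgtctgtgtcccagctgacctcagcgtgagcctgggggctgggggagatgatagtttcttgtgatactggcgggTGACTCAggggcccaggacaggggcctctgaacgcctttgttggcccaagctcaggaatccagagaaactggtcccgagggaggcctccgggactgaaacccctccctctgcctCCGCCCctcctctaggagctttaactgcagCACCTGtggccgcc

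The motifs were searched on both strands. They were CAGGTG, the E-box bound by SNAI and ZEB repressors of epithelial genes, TGANTCA, bound by AP-1, and AACNGGTT, bound by Grainyhead-like factors. The others were the p53 family half-site, GGGCGG (the GC box of SP1 factors) and the TATA box, searched as TATAAA. No capital run in these sequences belongs to more than 1 motif. The Cldn7 window holds 2 E-boxes, whose first bases lie 97 and 57 bases before the start, and 1 GC box that ends at the last base before the start. The Cldn1 window holds 2 GC boxes and no other match. The Cldn4 window holds 2 AP-1 matches, which begin 240 and 158 bases before the start, 1 E-box that begins 14 bases before it and 1 GC box.

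Over all members, RefSeq gave 12 such windows in 8 genes, several of which overlap within Cldn12 and within Ocln. Cldn8 had no entry. An E-box was in 4 of the 12 (1 each of Cldn4, Cldn6, Cldn7 and Ocln) and in 17.2% of all 32851 windows. A GC box was in 10 of the 12 and in 32.7% of all windows. AP-1 was in 1 of the 12 and in 6.75% of all, and the p53 family half-site was in 1 of the 12, that of Tjp1, and in 7.13% of all. Grainyhead-like and TATA matches were in 0 of the 12, against 1.79% and 12.4% of all windows. Such a match is a run of letters and was not tested as a binding site.

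The values are MAS5 signals, linear intensities already scaled so that each array has the same trimmed mean. The highest signal of 27 control probe sets for Bacillus subtilis genes, which mouse cells lack, was 78.4 over the 3 arrays, and a signal under it is called under background. Median signals were 90.8, 99.0 and 81.7 on the WT array and RASSF9-/- arrays 1 and 2. Keratinocyte markers were above background on every array (6 of 6, summed signal 117585 to 135142). So were all 5 melanocyte markers (23710 to 33213), while fibroblast markers (4 to 6 of 6 above background) had a summed signal of 811 to 1320. Of the endothelium markers, 2 to 3 of 5 were above background (summed signal 336 to 426), with Kdr and Cldn5 above it on all arrays and Cdh5 and Pecam1 on none. Of the leukocyte markers, 2 to 3 of 5 were above it (550 to 631), with Cd68 and Adgre1 above it on all arrays and Cd207 and Ptprc on none. Rassf9 read 478 on WT, 59.6 on RASSF9-/- array 1 and 120.2 on RASSF9-/- array 2 at its brighter probe set, and 340.4, 68.2 and 76.7 at the other. Each RASSF9-/- signal was under the WT signal, and 3 of the 4 were under background.

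Of the 17 probe sets of the 9 genes, 14 were above background on all 3 arrays and 3 on none. The 3 were the only probe set of Cldn8 and 2 of the 4 of Cldn1. Of the 9 genes, 8 passed the filter on signal and entered the fit, each by its brightest probe set, among 11089 genes. Signals of different probe sets are not compared with each other, because probes differ in how brightly they bind.

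**Figure D1:**
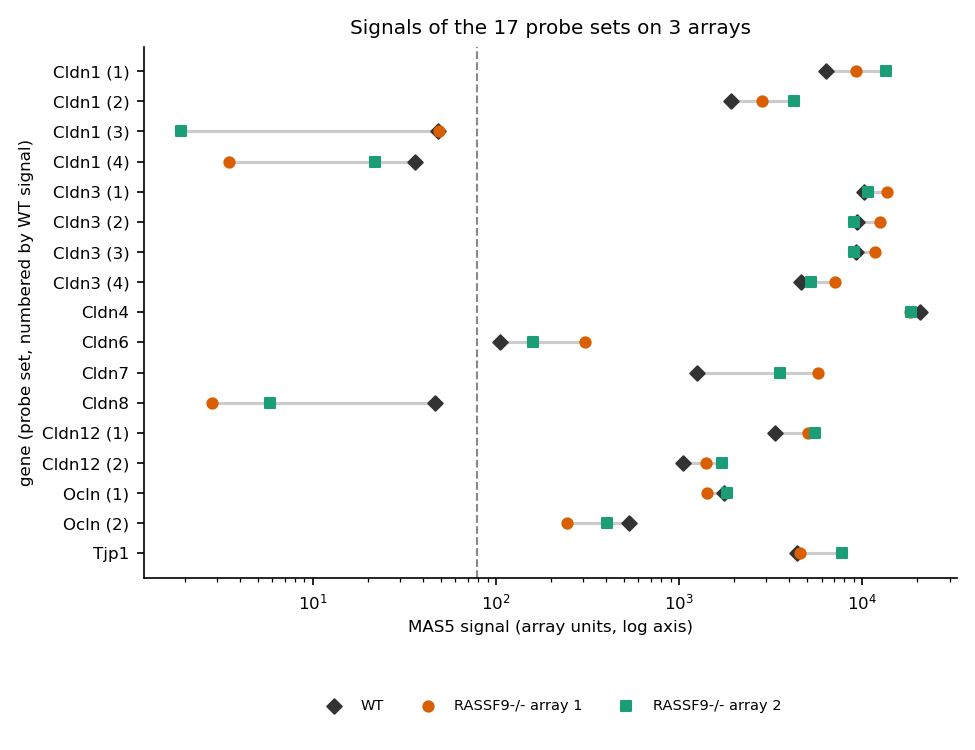
MAS5 signal (log axis) of each of the 17 probe sets on the WT array (diamonds), RASSF9-/- array 1 (circles) and RASSF9-/- array 2 (squares). Probe sets of 1 gene are numbered from the brightest on WT, grey lines join the lowest and highest array, and the dashed line is the background limit of 78.4. Cldn1 (3), Cldn1 (4) and Cldn8 lie left of that line on every array, and Cldn7 is the probe set above it whose arrays are farthest apart.

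The claudins differed from WT by unequal amounts. Cldn7 was several times brighter on both RASSF9-/- arrays, Cldn1, Cldn6 and Cldn12 were higher on both by smaller amounts, Cldn3 was close to WT on 1 of the arrays, and Cldn4 was slightly lower on both. No member passed the adjusted threshold in limma, and the differences given are measured sizes.

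Cldn7 encodes a claudin that is found along the lateral membrane of many epithelia as well as in tight junctions. Its 1 probe set (1448393_at) read 1260 on WT, 5766 on RASSF9-/- array 1 and 3557 on RASSF9-/- array 2. Both RASSF9-/- arrays were far above WT, by 4.58 and 2.82 times, and differed from each other by 0.70 on the log2 scale. The mean log2 difference from WT was 1.85 ± 0.41 (SE, 95% interval 0.85 to 2.84), a mean fold of 3.60, with an adjusted p = 0.367 from limma. The unadjusted p was 0.00364 in the same fit. Of all genes tested, 1.24% had a mean log2 difference at or above that of Cldn7.

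Cldn6 encodes a claudin of embryonic epithelia that is largely switched off in adult tissue. Its probe set (1417845_at) was dim, at 104.7 on WT, 306.6 on RASSF9-/- array 1 and 159.9 on RASSF9-/- array 2. Both RASSF9-/- arrays were above WT, by 2.93 and 1.53 times. They differed from each other by 0.94 on the log2 scale, more than the nearer of them differed from WT (0.61). The mean log2 difference was 1.08 ± 0.65 (SE, 95% interval -0.48 to 2.64, adjusted p = 1.00 from limma).

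Cldn1 encodes the claudin on which the water barrier of the skin depends. Its brightest probe set (1437932_a_at) read 6350 on WT, 9256 on RASSF9-/- array 1 and 13494 on RASSF9-/- array 2. The second probe set (1450014_at) read 1913, 2826 and 4250 in the same order. Both gave the order WT, RASSF9-/- array 1, RASSF9-/- array 2 from low to high, with log2 differences of 0.54 and 1.09 at the brightest and 0.56 and 1.15 at the other. At the brightest, the mean log2 difference was 0.82 ± 0.36 (SE, 95% interval -0.056 to 1.69, adjusted p = 0.933 from limma). The remaining probe sets of Cldn1 (1438851_x_at and 1438850_at) stayed at 48.8 or less on every array, under background, and give no fold.

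Cldn12 encodes a claudin that lacks the binding motif for ZO proteins at its C-terminus. Its brighter probe set (1433781_a_at) read 3349 on WT, 5059 on RASSF9-/- array 1 and 5494 on RASSF9-/- array 2. The other (1433782_at) read 1050, 1404 and 1722. Every RASSF9-/- signal was above that of WT, by 0.60 and 0.71 on the log2 scale at the brighter probe set and by 0.42 and 0.71 at the other. The RASSF9-/- arrays lay only 0.12 apart at the brighter probe set. On average Cldn12 differed by 0.65 ± 0.32 on the log2 scale (SE, 95% interval -0.13 to 1.44, adjusted p = 0.988 from limma).

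Cldn3 and Cldn4 are neighbours on chromosome 5 in the RefSeq annotation of GRCm38.p6, and both proteins are receptors of Clostridium perfringens enterotoxin. The brightest of the 4 probe sets of Cldn3 (1460569_x_at) read 10179 on WT, 13595 on RASSF9-/- array 1 and 10789 on RASSF9-/- array 2. In all 4 probe sets RASSF9-/- array 1 was the highest array, by 0.35 to 0.62 on the log2 scale over WT. RASSF9-/- array 2 lay within 0.17 of WT, above it at 1460569_x_at and 1426332_a_at and below it at 1451701_x_at and 1434651_a_at, so the direction on that array depended on the probe set. Over both arrays, the brightest gave a mean log2 difference of 0.25 ± 0.33 (SE, 95% interval -0.54 to 1.04, adjusted p = 1.00 from limma).

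The probe set of Cldn4 (1418283_at) read 20700 on WT, 18278 on RASSF9-/- array 1 and 18547 on RASSF9-/- array 2. Both RASSF9-/- arrays were under WT, and they were 0.021 apart on the log2 scale. The mean log2 difference was -0.17 ± 0.30 (SE, 95% interval -0.90 to 0.56, adjusted p = 1.00 from limma). The interval spans values on both sides of 0, so neither a fall nor the absence of one is shown. Cldn8, a claudin of tight segments of the nephron and colon, read 46.5, 2.80 and 5.80 and was under background on all 3 arrays.

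Occludin and the scaffold had smaller measured differences than Cldn7, and the RASSF9-/- arrays lay apart for both. The brighter probe set of Ocln (1448873_at) read 1762 on WT, 1415 on RASSF9-/- array 1 and 1836 on RASSF9-/- array 2, so WT lay between the RASSF9-/- arrays. The dimmer one (1440220_at) read 530.6, 243.1 and 401.5, with both RASSF9-/- arrays under WT by 1.13 and 0.40 on the log2 scale. The probe sets thus gave different directions on RASSF9-/- array 2. The mean log2 difference at the brighter probe set was -0.13 ± 0.38 (SE, 95% interval -1.05 to 0.79, adjusted p = 1.00 from limma), and it was 0.059 on RASSF9-/- array 2 alone.

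Tjp1 encodes ZO-1, which binds claudins through its PDZ domains. Its probe set (1417749_a_at) read 4391 on WT, 4569 on RASSF9-/- array 1 and 7736 on RASSF9-/- array 2. RASSF9-/- array 1 was 0.057 above WT on the log2 scale and RASSF9-/- array 2 was 0.82 above it, so the RASSF9-/- arrays were farther from each other (0.76) than the nearer was from WT. The mean log2 difference was 0.44 ± 0.41 (SE, 95% interval -0.56 to 1.43, adjusted p = 1.00 from limma).

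**Figure D2:**
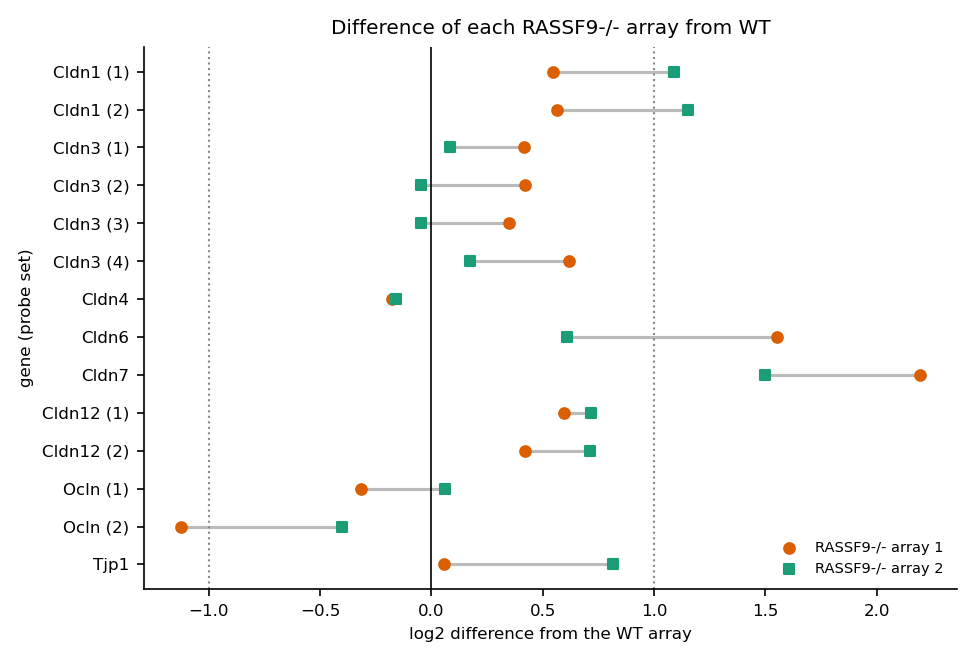
Log2 difference of RASSF9-/- array 1 (circles) and RASSF9-/- array 2 (squares) from the WT array for the 14 probe sets above background on all arrays, numbered as in the plot of signals. Grey lines join the arrays, the solid line is WT and dotted lines mark a 2-fold difference. Cldn7 is the only probe set with both arrays beyond 2-fold above WT, and Ocln gives different directions at its probe sets.

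Of the 8 members tested, 0 passed an adjusted p of 0.05 in limma, against 0.0812% of all genes. At an unadjusted p of 0.05 the count was 1, Cldn7, against 5.55% of all genes, and by the methods' t-test it was 0. On both RASSF9-/- arrays, 6 of 8 (Cldn1, Cldn3, Cldn6, Cldn7, Cldn12 and Tjp1) were higher than WT, against 33.6% of all genes. One, Cldn4, was lower on both (32.7% of all genes) and 1, Ocln, lay on opposite sides of WT (33.7% of all genes). Both differences share the WT array, so an error of that array moves both the same way. These counts depend on the scaling: 6 were higher under quantile normalization, 5 after division by the median of each array, where Tjp1 lay under WT on RASSF9-/- array 1, and 4 after scaling to the hybridization controls, where Cldn3, Cldn4 and Ocln were lower on both. That last scaling moved the median of all genes from -0.01 to -0.33 on the log2 scale. Of all genes, 13.2% were then higher and 58.7% lower on both arrays. This scaling adds 1 amount to all log2 signals of an array, so positions relative to the median cannot change and are no check on the sizes. They were 1.85 for Cldn7, 0.82 for Cldn1, 0.26 for Cldn3 and -0.16 for Cldn4.

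On each of the RASSF9-/- arrays, 1 member, Cldn7, was at least 2-fold above WT, against 2.89% of all genes, and 0 members were at least 2-fold below it, against 2.24%. With RASSF9-/- array 1 alone 2 members passed (Cldn6 and Cldn7), against 5.83% of all genes, and with RASSF9-/- array 2 alone 2 passed (Cldn1 and Cldn7), against 6.87%. WT lay outside the RASSF9-/- pair by more than the pair differed for 3 members (Cldn4, Cldn7 and Cldn12), against 32.3% of all genes, a share of 37.5% of the members that is near the background. The median log2 difference of the 8 members was 0.55, with 0.48 on RASSF9-/- array 1 and 0.66 on RASSF9-/- array 2. Over all genes it was -0.01, with 0.05 and -0.04.

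**Figure D3:**
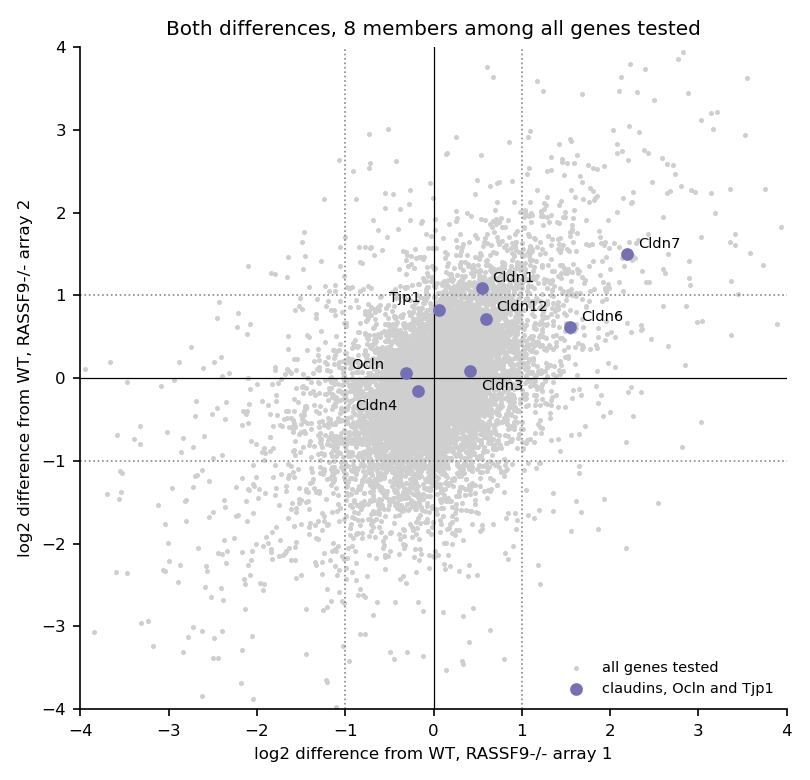
Log2 difference from WT on RASSF9-/- array 1 (horizontal) and RASSF9-/- array 2 (vertical) for the genes tested (grey) and the 8 members (purple). Dotted lines mark 2-fold, and 47 genes lie outside the plotted range of 4 on the log2 scale. Both axes share the WT array. Cldn7 lies in the corner beyond 2-fold on both axes, Cldn6 and Cldn1 beyond it on 1, and Cldn3, Cldn4, Cldn12, Ocln and Tjp1 within it.

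The RASSF9-/- arrays did not rank the members alike. Cldn7, Cldn6 and Cldn3 were brighter on RASSF9-/- array 1 than on array 2, and Cldn1, Cldn12, Ocln and Tjp1 were brighter on array 2. The distance between the RASSF9-/- arrays ran from 0.021 for Cldn4 to 0.94 for Cldn6. RASSF9-/- array 1 shares its image number with WT, so its values are also those within this possible batch: 2.19 for Cldn7, 1.55 for Cldn6, 0.60 for Cldn12, 0.54 for Cldn1, 0.42 for Cldn3, 0.057 for Tjp1, -0.18 for Cldn4 and -0.32 for Ocln. In samples of whole cultures, fewer cells of a type and less RNA per cell cannot be told apart.

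Of 5 markers of simple epithelia, 4 read higher than WT on both RASSF9-/- arrays, against 33.6% of all genes. Of the 5, 0 were called, against 0.0812% of all genes. Krt7, a keratin of simple and glandular epithelia, read 2300 on WT, 8745 on RASSF9-/- array 1 and 7014 on RASSF9-/- array 2, a log2 difference of 1.77 ± 0.34 (SE, adjusted p = 0.335 from limma). All 5 (Krt7, Krt8, Krt18, Krt19 and Epcam) were above background on every array, and Epcam was the one that read under WT on RASSF9-/- array 2. On that array Krt8 and Krt18 were close to WT, at log2 differences of 0.07 and 0.17, and Krt19 was at 0.77. On RASSF9-/- array 1 Krt8, Krt18 and Krt19 were at 1.11, 1.00 and 0.93. Their summed signal was 28818 on WT, 55636 on RASSF9-/- array 1 and 33173 on RASSF9-/- array 2. Their part in the differences of Cldn7 and Cldn6, which were also brightest on RASSF9-/- array 1, was not tested.

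Among the other claudins tested, Cldn23 had the largest measured difference, in the opposite direction from Cldn7. It encodes a claudin expressed in differentiated epithelia. Its probe set (1424409_at) read 2135 on WT, 405.1 on RASSF9-/- array 1 and 489.4 on RASSF9-/- array 2. Both RASSF9-/- arrays were under WT by 5.27 and 4.36 times and lay close together, and the log2 difference was -2.26 ± 0.42 (SE, 95% interval -3.27 to -1.25, adjusted p = 0.323 from limma). Of 13 other claudins with a probe set, 2 (Cldn5 and Cldn23) were above background on all arrays, 5 on some arrays and 6 on none. Cldn9 and Cldn16, the claudin neighbours of Cldn6 and Cldn1 on their chromosomes, were among the 6. Cldn22 and Cldn5 were tested too and were near background, at 66.4 to 122.5 and at 81.5 to 112.3. Of the 3 tested, 1 was higher and 2 lower on both RASSF9-/- arrays, against 33.6% and 32.7% of all genes. In this list 0 were called, against 0.0812% of all genes.

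Junctional adhesion molecules and tricellular proteins lie in or beside the strands and where 3 cells meet. Their list also held the tetraspanin genes Tspan4 and Cd9. Of 9 tested, 2 (Tspan4 and Cd9) were higher on both RASSF9-/- arrays (33.6% of all genes) and 2 (Ildr1 and Lsr) were lower (32.7%). The other 5 (Cxadr, F11r, Jam2, Marveld2 and Marveld3) lay on opposite sides of WT (33.7% of all genes). In this list 0 were called, and the median log2 difference was -0.07. The tetraspanin gene Tspan4 was at 0.49 ± 0.47 (SE), Cd9 at 0.25 ± 0.32, Ildr1, which encodes a related tricellular protein, angulin-2, at -0.16 ± 0.48 and Lsr, which encodes the tricellular protein angulin-1, at -0.08 ± 0.33. Marveld2, the neighbour of Ocln and the gene of tricellulin, read 978.2 on WT, 975.6 on RASSF9-/- array 1 and 984.6 on RASSF9-/- array 2. It was named for its position after its values were seen.

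Cytoplasmic plaque and polarity genes, whose proteins sit under the junction and mark the apical side, had a median of 0.18 over 24 tested. Of these, 13 were higher on both RASSF9-/- arrays, 5 lower and 6 on opposite sides. Shares over all genes were 33.6%, 32.7% and 33.7%. In this list 0 were called, against 0.0812% of all genes. Pard6b, an adaptor of the apical polarity complex, read 837.3 on WT, 1364 on RASSF9-/- array 1 and 3161 on RASSF9-/- array 2. Both RASSF9-/- arrays were above WT and far from each other, and the log2 difference was 1.31 ± 0.55 (SE, adjusted p = 0.911 from limma). Cgnl1, the gene of paracingulin, was at 0.81 ± 0.47, Pard6a at 0.72 ± 0.54 and Myh9, the heavy chain of nonmuscle myosin, at -0.58 ± 0.31, none of which was called. The direction of Myh9 depended on the probe set, with 0.37 and 0.07 at 1420172_at and -0.69 and -0.73 at 1420170_at. A dimmer probe set of Cgnl1 (1421158_at) was close to WT, at 0.05 and -0.03.

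**Figure D4:**
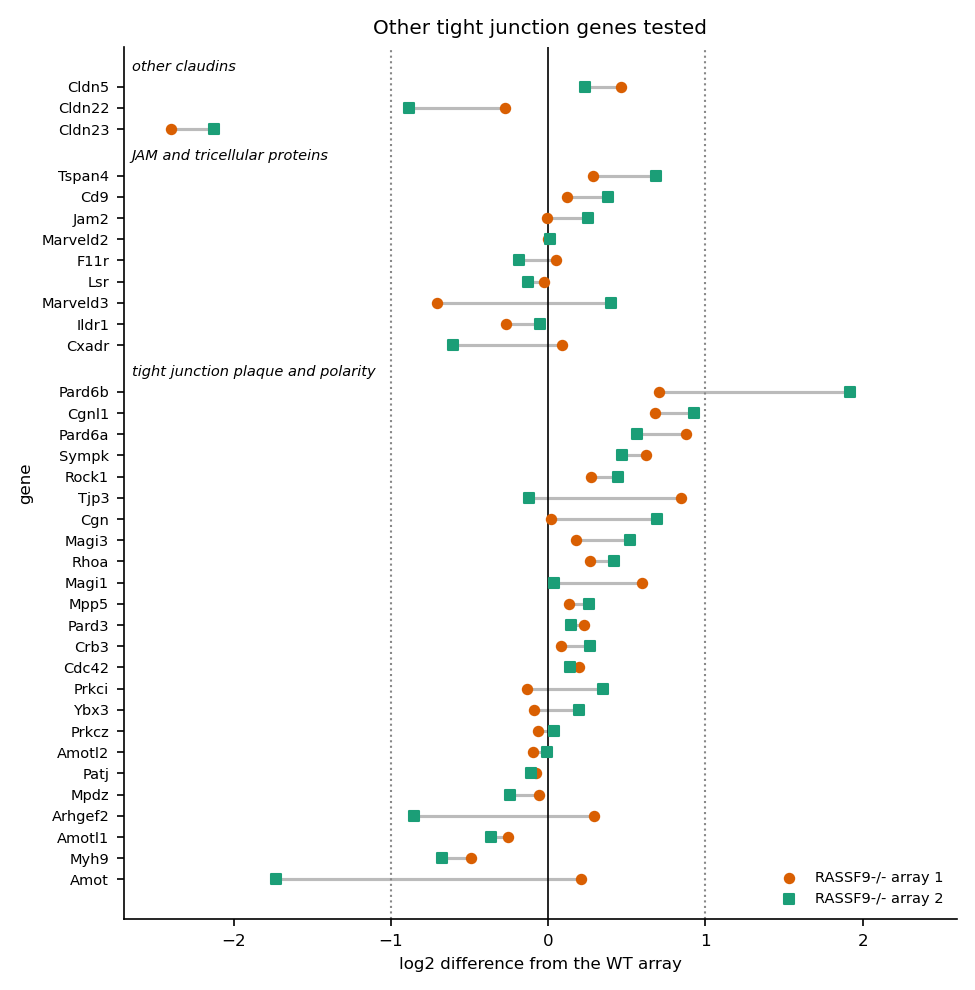
Log2 difference from WT on RASSF9-/- array 1 (circles) and RASSF9-/- array 2 (squares) for other claudins, junctional adhesion molecules and tricellular proteins, and plaque and polarity genes that were tested, ordered by mean difference within each list. The solid line is WT and dotted lines mark 2-fold. The tetraspanin genes Tspan4 and Cd9 are in the second list. By the brightest probe set of each gene, Cldn23 is the only one with both arrays beyond 2-fold, at -2.40 and -2.13.

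Among genes that regulate claudins or cleave junction proteins, 12 were tested. Of these, 4 were higher on both RASSF9-/- arrays (33.6% of all genes), 4 lower (32.7%) and 4 on opposite sides (33.7%). None was called, and the median was -0.46 on RASSF9-/- array 1 and 0.56 on RASSF9-/- array 2. Trp63, the p63 gene of basal keratinocytes, read 3239 on WT, 1460 on RASSF9-/- array 1 and 1543 on RASSF9-/- array 2. The RASSF9-/- arrays lay close together, at less than the WT signal, with a log2 difference of -1.11 ± 0.35 (SE, adjusted p = 0.689 from limma). Snai2, a repressor that binds E-boxes, was at -0.54 ± 0.31 and Zeb2, another such repressor, at 0.57 ± 0.58. St14, the gene of the membrane protease matriptase, was at 0.53 ± 0.33, with an adjusted p of 1.00 in limma for Snai2, Zeb2 and St14. A second probe set of Snai2 (1418673_at) was lower by more, at log2 differences of -1.23 and -0.91. Zeb2 was near background, at 116.6, 179.2 and 166.2. At its probe set 1458941_at the RASSF9-/- arrays lay on opposite sides of WT (0.77 and -0.15).

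Adherens junctions lie beside tight junctions and hold cells together through cadherins. Of 11 core genes tested, 2 were higher on both RASSF9-/- arrays, 6 lower and 3 on opposite sides. Shares over all genes were 33.6%, 32.7% and 33.7%. Of the 11, 0 were called, against 0.0812% of all genes, and the median was -0.16. Ctnnb1 lay on opposite sides by its brightest probe set (0.13 and -0.25). It was lower on both at 1450008_a_at (-0.69 and -0.83) and 1430533_a_at (-0.60 and -0.66). Nectin2, an adhesion molecule of the immunoglobulin family, was at 0.91 ± 0.38 (SE), and Afdn, which links nectins to actin, at 0.54 ± 0.33. Jup, the gene of plakoglobin, was at -1.11 ± 0.56, with -1.78 on RASSF9-/- array 1 and -0.44 on RASSF9-/- array 2. Vcl, the gene of vinculin, was at -0.60 ± 0.32.

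Genes of the granular layer and cell envelope, the layer in which epidermal tight junctions form, differed between the RASSF9-/- arrays. Of 8 tested, 0 were higher on both RASSF9-/- arrays, 5 were lower and 3 lay on opposite sides. Shares over all genes were 33.6%, 32.7% and 33.7%. Of the 8, 0 were called, against 0.0812% of all genes. Their median was -1.97 on RASSF9-/- array 1 and -0.21 on RASSF9-/- array 2. Krt1, a keratin of suprabasal cells, did not enter the fit, because its mean log2 signal was under the filter, and read 440.1 on WT, 5.70 on RASSF9-/- array 1 and 29.6 on RASSF9-/- array 2. It was named after its values were seen, and its RASSF9-/- signals were under background. Ivl, the gene of the envelope protein involucrin, read 5062 on WT, 1791 on RASSF9-/- array 1 and 1822 on RASSF9-/- array 2, a log2 difference of -1.49 ± 0.34 (SE, adjusted p = 0.372 from limma). Dsc1, a desmosomal cadherin of upper layers, read 1117 on WT, 39.7 on RASSF9-/- array 1 and 89.4 on RASSF9-/- array 2, so that array 1 was under background and array 2 was 12.5-fold under WT. The mean of both, with the background limit in place of the value of array 1, was at least 13.3-fold lower than WT. Dsc1 passed the filter on mean signal through its WT signal, so its place among the lower genes is partly set by the filter. Dsg1a, another desmosomal cadherin of upper layers, read 2688 on WT, 138.1 on RASSF9-/- array 1 and 647.4 on RASSF9-/- array 2, a log2 difference of -3.17 ± 0.88 (SE, adjusted p = 0.549 from limma). Cdsn, the gene of corneodesmosin, read 7599, 1389 and 5906 in the same order. Flg, the gene of filaggrin, also counted as lower on both, read 589.4, 53.1 and 570.4. Its signal was thus under background on RASSF9-/- array 1 and close to WT on RASSF9-/- array 2. The 3 on opposite sides, Krt10, Lor and Tgm1, were under WT on RASSF9-/- array 1 and above it on RASSF9-/- array 2. Lor, the gene of loricrin, read 796.2, 328.3 and 2129.5 in that order, and Tgm1 read 580.2, 205.9 and 1818. The part of this list in the differences of the claudins was not tested.

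**Figure D5:**
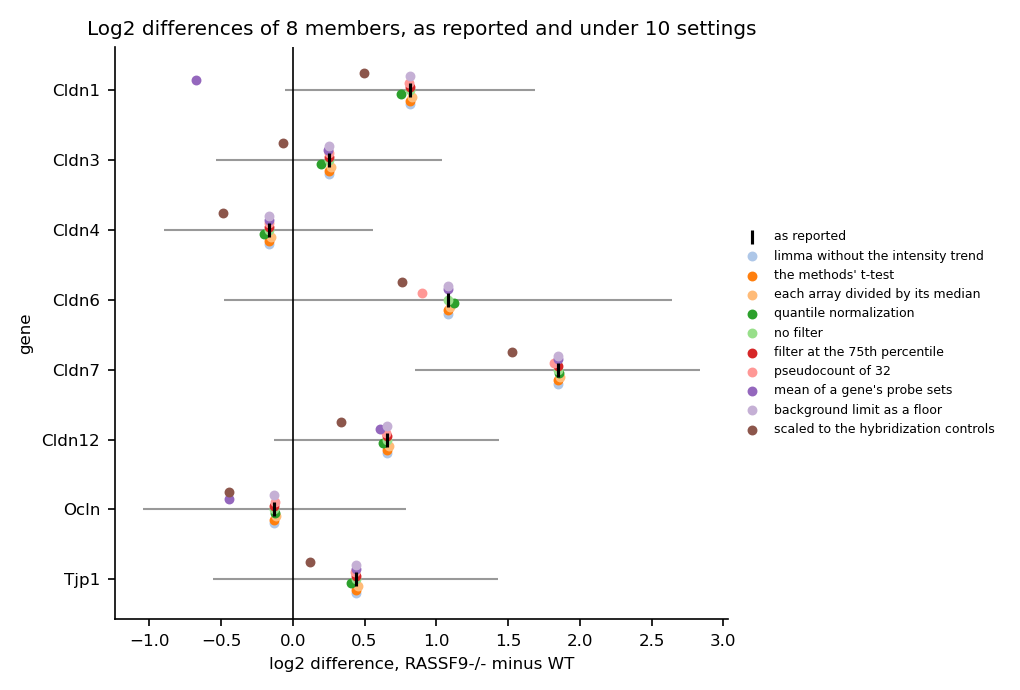
Log2 difference (RASSF9-/- minus WT) of the 8 members as reported (black bars, with the 95% interval from limma as a grey line) and under 10 other settings (coloured points, shifted vertically so that they can be told apart). Cldn7 stays between 1.53 and 1.86. Cldn1 crosses 0 with the mean of its probe sets and Cldn3 with the hybridization controls.

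The size for Cldn7 ranged from 1.53 to 1.86 under these settings, and its adjusted p from limma and the methods' t-test ranged from 0.200 to 0.997. The sign of Cldn1 turned to -0.67 when all 4 of its probe sets were averaged, of which 2 are under background. As a measure of RNA quality, 3' control signals were divided by 5' ones, which gave 0.841, 0.939 and 0.832 for Gapdh and 1.43, 1.41 and 1.37 for beta-actin on WT and RASSF9-/- arrays 1 and 2.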

How the data were processed

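Primary keratinocytes of 1 WT and 2 RASSF9-/- samples were hybridized to Affymetrix 430 2.0 arrays. The authors deposited MAS5 signal intensities, linear and scaled to the same trimmed mean, 500 after leaving out 2% at either end, as checked on the files. No detection calls, image files or comparisons made by the authors were used. Log2 intensities were analysed without further normalization or pseudocount. Of 45037 probe sets that are not controls, 34945 had 1 symbol in the platform annotation. The filter kept probe sets ranked at the median or higher by mean log2 signal (50th percentile, a signal of 82.7), which can remove a gene that is bright on 1 array only, and the brightest was taken per gene, leaving 11089 genes.

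The genotypes were compared with limma 3.58.1 (R 4.3.3), using lmFit and then eBayes with its trend over intensity, in two-sided tests with Benjamini-Hochberg adjustment (1 residual and 5.31 prior degrees of freedom), and the procedure was tested on simulated data. Calls needed an adjusted p under 0.05. A term for the number in the image names would leave no residual degree of freedom. The number of arrays limits the precision. Sequences came from RefSeq (GRCm38.p6). The members, lists and tests were chosen with earlier results of these data known. Named were all members, Rassf9 and, of each other list, up to 4 genes that moved the same way on both RASSF9-/- arrays with the largest smaller difference, while marker lists are mostly given as counts and sums. Krt1, Flg and the genes of other lists named as on opposite sides of WT, Marveld2 among them, lie outside this rule. Alternatives were division by the median, quantile normalization, scaling to 18 hybridization control probe sets (chosen after seeing the data), no filter, a 75th percentile filter, a pseudocount of 32, the mean of probe sets, no trend, the methods' t-test, the background limit as a floor, fold thresholds of 1.5 and 3, and leaving out each RASSF9-/- array.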

Additional observations from a re-analysis of the deposited data

How the results depend on the processing

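Under 14 other settings, 92 of 95 recomputed differences of single members kept their direction, a count partly fixed in advance. The differences were unchanged without the trend, by the methods' t-test, with no filter, with the 75th percentile filter and with the floor. The fold thresholds recompute none, and leaving out an array cannot turn a member that was higher or lower on both arrays. The 3 that turned were Cldn1 at -0.67 with all probe sets of a gene averaged, Cldn3 at -0.067 with the hybridization controls and Ocln at 0.059 without RASSF9-/- array 1 (-0.32 without RASSF9-/- array 2). Members called were 0 under each of the 10 settings in which the fit was repeated. The count of members at least 2-fold from WT the same way was 1, and it was 2 with no filter, where Cldn8 under background was added, 2 to 2 when either RASSF9-/- array was left out, 3 at a 1.5-fold threshold and 0 at a 3-fold threshold. The median of the members, 0.55, became 0.34 with the mean of probe sets and 0.23 with the hybridization controls. The 18 hybridization control probe sets were all brighter than WT on each RASSF9-/- array, by a mean of 0.44 and 0.20 on the log2 scale. Of all genes, 9 were called, against 23 with the hybridization controls, 5 with a 75th percentile filter or a pseudocount of 32, 4 by the methods' t-test with adjustment, and 0 without the trend, with quantile normalization or with the floor. The causes were not tested. No paired analysis was possible, because there was 1 WT array and no pairs of WT and RASSF9-/- samples are described. The single WT array could not be left out, and 1 residual degree of freedom sets wide intervals, so missing the threshold does not show that there was no difference.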
